A study of Homo sapiens with 6 samples.

Results

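The genes that extracellular signal-regulated kinase (ERK) switches on, and that feed back on it, were followed in SKBR3 cells after silencing of NDRG1. SKBR3 is a long-established line from HER2-positive breast cancer, in which the receptor HER2 drives the RAS, RAF, MEK and ERK cascade. The members were all genes with a DUSP, SPRY or SPRED number in their symbol, with a named set of ETS, EGR, AP-1 and other early response genes. Of the 51 genes the rule names, 44 of the 14812 genes on the arrays were analysed, and SPRED1, SPRED2, SPRED3, SPRY1, EGR2, PHLDA1 and CCN1 were not analysed here. The rule uses symbols and known roles and no measured value, but it was drawn up with earlier results of these data known.

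RNA was measured on 6 Affymetrix Gene ST arrays. Of these, 3 were from cells that stably carry a lentiviral shRNA against NDRG1 (shNDRG1). The other 3 were from cells with an shRNA against GFP (shGFP control). In the methods the hairpin is NDRG1 shRNA1, and the G8 in the shNDRG1 array titles is not explained. The methods name the control a vector control, whereas the labels name GFP. All cultures grew in DMEM with 10% serum, were labelled as without DFO (deferoxamine, an iron chelator), and were harvested by trypsinization. The labels number 3 batches with an array of each group in every batch, and a single hairpin stands for NDRG1 silencing. Batches 2 and 3 carry the same day in the labels and batch 1 another, with no word on what that day marks.

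ERK phosphorylates transcription factors such as the ETS partners of serum response factor (SRF), and within minutes the immediate early genes FOS, EGR1 and IER2 are transcribed. Their protein products, the AP-1 and EGR factors, then switch on later genes. Feedback closes the loop at several points, since dual-specificity phosphatases (DUSP) remove phosphate from MAP kinases, sprouty proteins (SPRY) act between the receptor and RAF, and ERRFI1 blocks the kinase domains of EGFR and HER2. In HER2-positive cells, transcripts such as DUSP6, SPRY4 and ETV4 are widely used as a readout of ERK output.

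The start regions below are shown because they carry the letters through which such signals are known to reach these genes, and the matches are descriptions of sequence, not of binding. Sequences are from RefSeq (GRCh38.p14), in a window of 250 bases before to 50 after the start. Sites outside this window were not searched, so a gene without a match may still hold a site. Capitals mark the CArG box, which SRF recognises, in EGR1 and in SRF itself, the cyclic AMP response element TGACGTCA (CRE) in DUSP1, DUSP8 and JUND, and the AP-1 site TGANTCA in FOSL2, all searched on both strands and with no overlap between them.
EGR1 (chr5:138465359-138465418, plus strand): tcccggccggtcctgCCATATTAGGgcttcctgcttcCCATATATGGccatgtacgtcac
SRF (chr6:43171219-43171268, plus strand): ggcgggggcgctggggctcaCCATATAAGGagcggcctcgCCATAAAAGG
DUSP1 (chr5:172771296-172771345, minus strand): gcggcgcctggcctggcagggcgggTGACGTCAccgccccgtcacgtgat
DUSP8 (chr11:1572332-1572401, minus strand): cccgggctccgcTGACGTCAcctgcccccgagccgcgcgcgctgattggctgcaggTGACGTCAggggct
JUND (chr19:18281793-18281842, minus strand): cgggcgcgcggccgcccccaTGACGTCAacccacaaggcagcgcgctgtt
FOSL2 (chr2:28392851-28392880, plus strand): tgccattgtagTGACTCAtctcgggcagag
A window was found for 35 of the 44 members. A CArG box was in 1 of them (EGR1), against 1.6% of all 27305 genes with a window, and the CRE was in 3, against 2.25%. The AP-1 site was in 2 (FOSL2 and SPRY3), against 9.37%, and the ETS motif CCGGAA in 5 (DUSP15, ETV1, FOSB, IER2 and SPRY2), against 20.1%. The SPRY3 match was in a window on chromosome Y, whereas the gene is listed here on chromosome X.

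The authors subtracted a baseline from each probe, so values are log2 signals relative to that baseline, read as base 2 although the base is not stated. No expression level remains, and levels cannot be compared between genes or used to check the cell type. Differences are shNDRG1 minus shGFP control, from limma with the batch as a block (the arrays compared in pairs) and Benjamini-Hochberg adjustment over all 14812 genes. The silenced gene NDRG1 was -0.77, -0.74 and -1.09 in batches 1, 2 and 3 of shNDRG1 cells, against 0.02, 0.42 and -0.02 in control cells. All 3 silenced arrays lay below the control arrays, giving a log2 difference of -1.01 (standard error 0.09, adjusted p = 0.289 from limma). A two-sided exact permutation test gave p = 0.1, the smallest that 3 arrays against 3 allow. Both arrays of batch 2 spread more widely over genes (SD 0.286 and 0.347) than the other 4 (0.135 to 0.158). All 5 measured markers of HER2-positive luminal cells, of 7 listed, had a mean below the control (log2 fold change -0.44 to -0.11). ERBB2, the gene of HER2, and CDH1 were not analysed here. The lowest was GRB7 (-0.44, standard error 0.05, unadjusted p = 0.000796, adjusted p = 0.304 from limma). GRB7 was below the control in all 3 batches, whereas KRT8 and KRT19 changed sign between batches. Of 4 mesenchymal markers FN1 was at -0.65 and VIM at -0.01, and of 4 blood cell markers CD68 was at 0.51, and the others were not analysed here. Their part in the results was not tested.

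No member passed the test, and neither did any other gene. At an adjusted p under 0.05 from limma, 0 of 44 members were higher and 0 lower, against 0% of all genes. The members at an unadjusted p under 0.05 numbered 3 above the control (DUSP19, FOSL2 and ERRFI1, 6.82%) and 2 below it (IER3 and DUSP18, 4.55%). These shares lie near the background of 5.7% of all genes higher and 3.74% lower. Without the block, 1 was higher (FOSL2) and 0 lower, against 2.69% and 1.57% of all genes. The members' median log2 fold change was 0.03, against 0.01 over all genes, with 26 above and 18 below the control. In RNA from whole cultures, fewer cells that use a gene and less RNA per cell cannot be told apart.

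**Figure D1:**
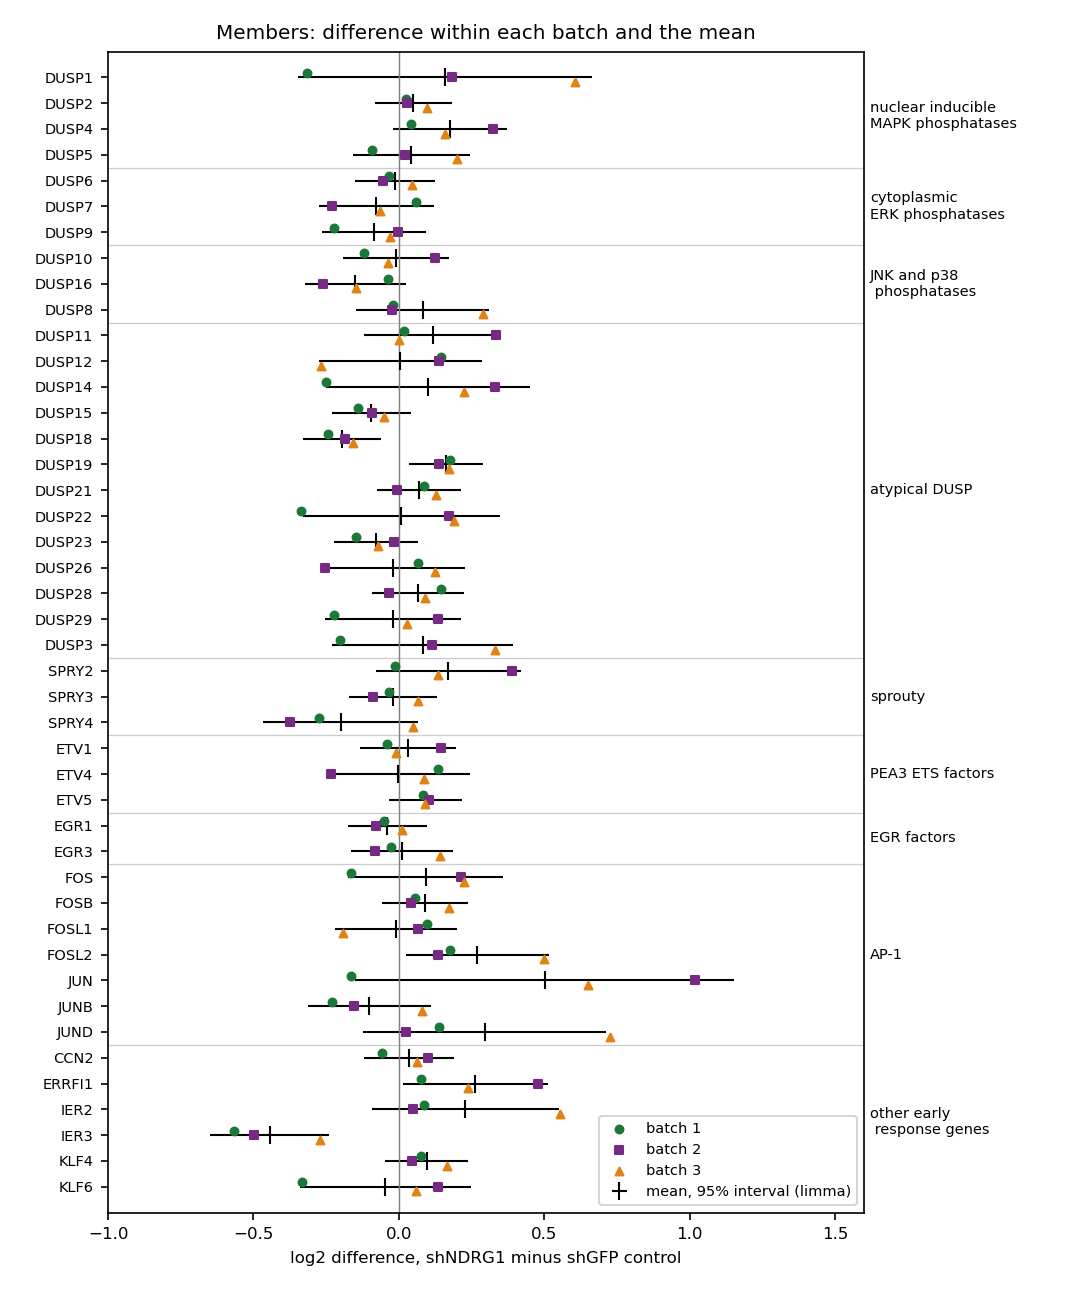
Log2 difference, shNDRG1 minus shGFP control (x axis), for the 44 members by family (y axis). Coloured points are the 3 batches, the tick is their mean and the line its 95% interval from limma; the intervals of 5 members lie to 1 side of 0, none past the adjusted threshold, and IER3 lies farthest below 0.

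Of the 3 readouts of ERK output named above, DUSP6 and ETV4 had a mean close to 0 and SPRY4 a mean of -0.20, and the intervals of all 3 included 0. DUSP6, a cytoplasmic phosphatase that prefers ERK, was -0.04, 0.01 and 0.03 in batches 1, 2 and 3 of shNDRG1 cells and -0.01, 0.06 and -0.02 in control cells. All 6 arrays lay within 0.10 on the log2 scale, and the groups overlapped. Its log2 fold change was -0.01 (95% interval -0.15 to 0.12). Values relative to a baseline do not show whether so flat a probe reads a steady transcript or lies near background. The ETS factor ETV4 had a 95% interval of -0.25 to 0.24, and its arrays ranged more widely, with 0.35 in control cells of batch 2. SPRY4 had a 95% interval of -0.47 to 0.07, and its arrays are given with the other sprouty genes. For EGR1, an early zinc finger factor whose start region holds both CArG boxes shown above, the log2 fold change was -0.04 (95% interval -0.17 to 0.10). For FOSL1, an AP-1 factor that accumulates when ERK stays active, it was -0.01 (95% interval -0.22 to 0.20). For 40 of the 44 members the 95% interval lay within a 1.5-fold change in both directions, against 94.1% of all genes. The 4 others were IER3, JUN, JUND and DUSP1. For 11 members, DUSP6, EGR1, ETV1 and ETV5 among them, the 6 arrays lay within 0.25 of each other on the log2 scale, as they did for 38.2% of all genes.

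IER3 had the smallest p of the members. This early response gene encodes a small protein known to influence cell survival and to prolong ERK phosphorylation. It was -0.43, 0.06 and -0.28 in batches 1, 2 and 3 of shNDRG1 cells, and 0.13, 0.56 and -0.01 in control cells. In every batch the silenced cells were lower, by differences of -0.57, -0.50 and -0.27, but the groups overlapped, because both arrays of batch 2 were high for their group. The log2 fold change was -0.44 (standard error 0.08, unadjusted p = 0.00337, adjusted p = 0.318 from limma), or 1.36-fold lower. All 11 probes of IER3 were below the control, from -0.62 to -0.26. Several of these probes gave nearly the same values and are not separate measurements, and the probe of largest range gave -0.62. Without the block the unadjusted p was 0.0643, and without batch 2, whose arrays stood apart, the log2 fold change was -0.42 (unadjusted p = 0.0205, adjusted p = 0.651 from limma).

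FOSL2 and ERRFI1 were the members at an unadjusted p under 0.05 whose groups did not overlap. FOSL2 encodes an AP-1 subunit, and its start region holds the AP-1 site shown above. It was -0.07, 0.07 and 0.07 in shNDRG1 cells and -0.24, -0.07 and -0.43 in control cells of batches 1, 2 and 3. The silenced arrays were all higher, narrowly so between batch 1 of the silenced cells and batch 2 of the control, and the widest gap was in batch 3. Its log2 fold change was 0.27 (standard error 0.09, unadjusted p = 0.0377, adjusted p = 0.489 from limma). Without batch 3 it was 0.16 (unadjusted p = 0.0803), and without batch 2 it was 0.34 (unadjusted p = 0.0447).

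ERRFI1, the feedback inhibitor of EGFR and HER2, was 0.02, -0.02 and 0.10 in shNDRG1 cells and -0.05, -0.50 and -0.14 in control cells. The silenced arrays lay close together, and the control array of batch 2 was far below the other 2 control arrays. The log2 fold change was 0.26 (standard error 0.09, unadjusted p = 0.0416, adjusted p = 0.494 from limma). Without batch 2 it was 0.16 (unadjusted p = 0.123). The ETS factor ETV5 also had groups that did not overlap, at 0.04, 0.09 and 0.01 in shNDRG1 cells and -0.04, -0.01 and -0.07 in control cells. Its difference was small and alike in the batches (0.08, 0.10 and 0.09), giving a log2 difference of 0.09 (standard error 0.05, unadjusted p = 0.118, adjusted p = 0.664 from limma). In all, 3 members had every silenced array above every control array and 0 had every one below, against 5.14% and 3.21% of all genes.

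**Figure D2:**
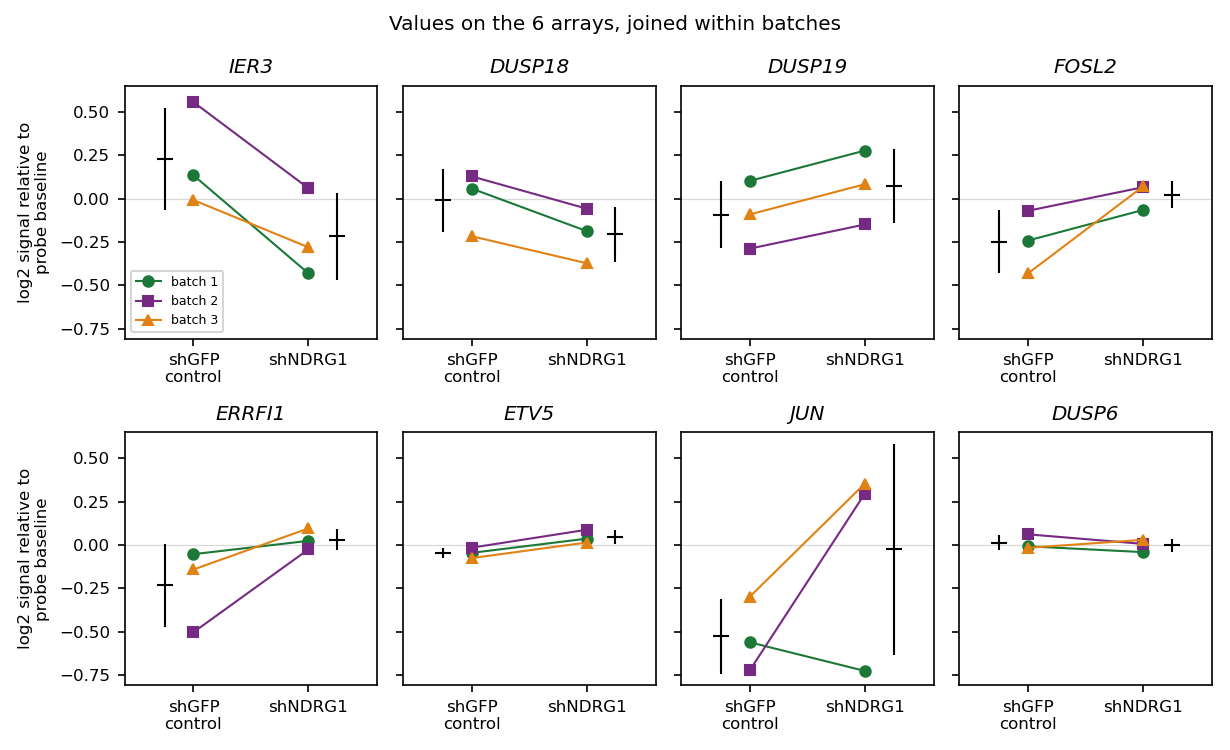
Log2 signal relative to the probe baseline (y axis) on the 6 arrays for 8 members, with a line joining the control and shNDRG1 arrays of a batch; black marks beside them are group means with SD (n = 3). The lines of IER3 and DUSP18 all fall and those of DUSP19, FOSL2, ERRFI1 and ETV5 all rise, JUN falls in batch 1 and rises in batches 2 and 3, and DUSP6 is flat.

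Among the phosphatases that act on MAP kinases the differences were small. The nuclear, inducible phosphatases DUSP1, DUSP2, DUSP4 and DUSP5 all had a mean above the control, at 0.16, 0.05, 0.18 and 0.04, and none had an unadjusted p under 0.05. DUSP4, which acts on ERK in the nucleus, was -0.32, 0.33 and 0.01 in batches 1, 2 and 3 of shNDRG1 cells and -0.36, 0.00 and -0.15 in control cells. It was higher within every batch (0.04, 0.32 and 0.16), although its values followed the batch more than the group (log2 fold change 0.18, standard error 0.07, unadjusted p = 0.0687). The cytoplasmic ERK phosphatases DUSP6, DUSP7 and DUSP9 all had a mean below the control, at -0.01, -0.08 and -0.08, but only DUSP9 was below it in all 3 batches. Of the phosphatases that prefer JNK and p38, DUSP16 was at -0.15 (standard error 0.06, unadjusted p = 0.0755) and below the control in all 3 batches, whereas DUSP8 was at 0.08 and DUSP10 at -0.01.

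The 13 atypical DUSP genes, which lack the kinase-binding domain of the classical ones, held both DUSP members with an unadjusted p under 0.05. DUSP18 was -0.19, -0.06 and -0.37 in shNDRG1 cells and 0.06, 0.13 and -0.22 in control cells, with differences of -0.24, -0.19 and -0.16 within batches. Its log2 fold change was -0.20 (standard error 0.05, unadjusted p = 0.0150, adjusted p = 0.406 from limma). DUSP19, known as a regulator of the JNK pathway, was 0.28, -0.15 and 0.08 in shNDRG1 cells and 0.10, -0.29 and -0.09 in control cells, with differences of 0.17, 0.14 and 0.17. The log2 fold change was 0.16 (standard error 0.05, unadjusted p = 0.0236, adjusted p = 0.442 from limma). For both genes the difference was even over the batches while the batches themselves lay apart, so without the block the unadjusted p was 0.171 for DUSP18 and 0.314 for DUSP19. Without batch 2 these p-values, with the block, were 0.0510 and 0.0611. The other 11 ranged from -0.09 (DUSP15) to 0.12 (DUSP11, an RNA phosphatase).

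The 3 sprouty genes measured did not share a direction. SPRY2, an inhibitor of receptor signalling to ERK, was -0.10, 0.36 and 0.17 in shNDRG1 cells and -0.08, -0.03 and 0.03 in control cells. Only in batches 2 and 3 was it higher, and the log2 fold change was 0.17 (standard error 0.09, unadjusted p = 0.135). SPRY4, with a like function, was -0.40, 0.06 and 0.08 in shNDRG1 cells and -0.12, 0.44 and 0.03 in control cells. It was lower in batches 1 and 2 and about level in batch 3, giving a log2 difference of -0.20 (standard error 0.10, unadjusted p = 0.109). SPRY3 was at -0.02. The difference between SPRY2 and SPRY4 was not tested.

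JUN had the largest difference of any member but not the most even one. It encodes the main partner of FOS proteins in AP-1, and was -0.72, 0.30 and 0.35 in batches 1, 2 and 3 of shNDRG1 cells against -0.56, -0.72 and -0.30 in control cells. Silenced cells were slightly lower in batch 1 and much higher in batches 2 and 3 (-0.16, 1.02 and 0.65). The log2 fold change was 0.50 (standard error 0.24, unadjusted p = 0.102, adjusted p = 0.642 from limma), or 1.42-fold higher. Without batch 1 it was 0.83 (unadjusted p = 0.00563, adjusted p = 0.876 from limma), and without batch 2 it was 0.24 (unadjusted p = 0.361).

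Among the other AP-1 genes, JUND, a subunit known for steady expression, was -0.07, 0.10 and 0.06 in shNDRG1 cells and -0.21, 0.08 and -0.66 in control cells. Its log2 difference of 0.30 (standard error 0.16, unadjusted p = 0.123) came mostly from the low control array of batch 3. JUNB, an AP-1 subunit that can oppose JUN, differed more between batches than any other member, at -0.26, 0.75 and 0.11 in shNDRG1 cells and -0.03, 0.90 and 0.03 in control cells. Both arrays of batch 2 stood high, and the log2 fold change was -0.10 (standard error 0.08). FOS was at 0.09 (standard error 0.10), and its 2 probes differed in direction, at -0.02 and 0.20. FOSB was at 0.09 (standard error 0.05) and above the control in all 3 batches. DUSP5 was the only other member whose probes differed in direction, at -0.02 and 0.11.

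Of the remaining early response genes, IER2 was -0.07, 0.46 and 0.62 in shNDRG1 cells and -0.15, 0.42 and 0.07 in control cells, giving a log2 difference of 0.23 (standard error 0.12, unadjusted p = 0.123). Most of that difference lay in batch 3. The Krüppel-like factor KLF4 was at 0.10 (standard error 0.05) and above the control in all 3 batches, and KLF6 was at -0.05 (standard error 0.11). CCN2, a matricellular protein gene also driven by YAP and SRF, was at 0.03 (standard error 0.06). EGR3 was at 0.01 and ETV1 at 0.03. Over all members, 11 were above the control in all 3 batches (25%) and 6 below (13.6%), against 17.1% and 12.5% of all genes. The former were DUSP2, DUSP4, DUSP11, DUSP19, ETV5, FOSB, FOSL2, JUND, ERRFI1, IER2 and KLF4, and the latter DUSP9, DUSP15, DUSP16, DUSP18, DUSP23 and IER3.

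The range of the 3 batch means was larger than the group difference for 40 of 44 members (90.9%), a share near the 85% of all genes. A range over 3 means tends to exceed a difference of 2 means from the spread between arrays alone, so the count does not rank batch against hairpin. The 4 exceptions were FOSL2, ERRFI1, ETV5 and DUSP28. JUNB had a range of batch means of 0.98 on the log2 scale, DUSP23 of 0.61 and DUSP12 of 0.58, beside log2 fold changes of -0.10, -0.08 and 0.01. Both arrays of batch 2 were the highest of the 6 for 13 members, JUNB, KLF4, EGR1, EGR3, ETV4 and DUSP5 among them, and the lowest for 4, which were DUSP11, DUSP12, DUSP19 and FOSL1. Over all genes these shares were 21.7% and 18%. The labels do not say what a batch is, and the part of the batch in each result was not tested beyond the block.

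**Figure D3:**
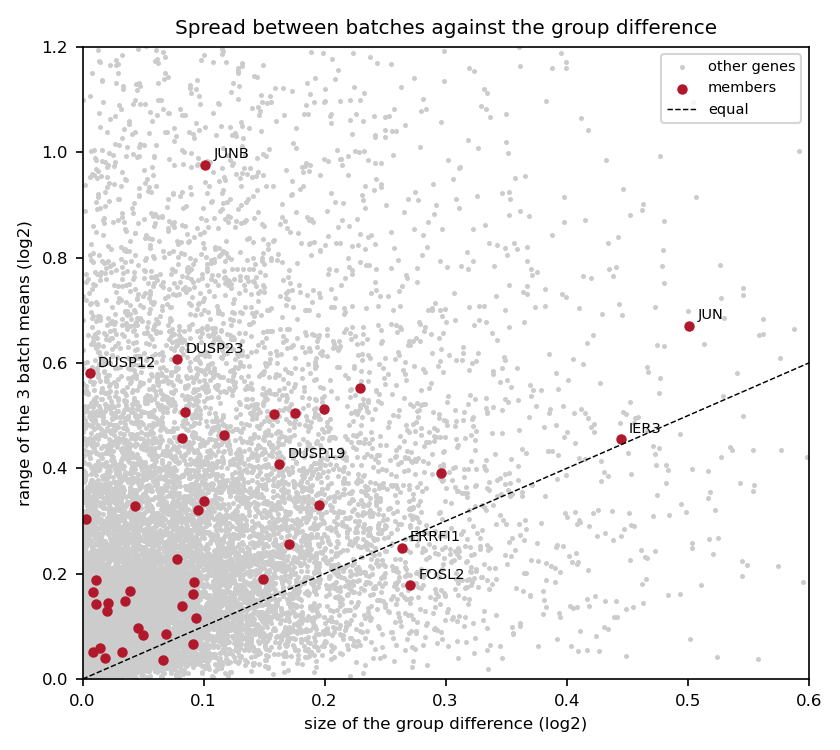
Range of the 3 batch means (y axis, log2) against the size of the group difference (x axis, log2) for the 44 members (red) and the other genes (grey, 294 of all genes lie outside the axes). The dashed line marks equal values; 40 members lie above it, JUNB at 0.98 highest.

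The direction of the members differed between batches. In batch 1, 18 of 44 were above the control (40.9%, against 50.5% of all genes), in batch 2 it was 26 (59.1% against 53.6%), and in batch 3 it was 33 (75% against 55.2%). The members' median difference was -0.03, 0.04 and 0.09 in batches 1, 2 and 3, and without batch 3 the median log2 fold change was -0.01. A set of 11 members (25%, against 11.9% of all genes) was below the control in batch 1 and above it in batches 2 and 3. These were JUN, FOS, DUSP1, DUSP3, DUSP5, DUSP14, DUSP22, DUSP29, SPRY2, KLF6 and CCN2, a pattern chosen after the values were seen and therefore not tested. Batches 2 and 3 share a label day, but the pattern was selected on that same split, so its link to the day was not tested.

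DUSP1, an early phosphatase of JNK, p38 and ERK, had the widest spread of these after JUN. It was -0.66, 0.09 and 0.21 in shNDRG1 cells and -0.35, -0.09 and -0.40 in control cells, with differences of -0.32, 0.18 and 0.61 and a log2 difference of 0.16 (standard error 0.19). The 3 members with a CRE in their start region, DUSP1, DUSP8 and JUND, had differences of 0.61, 0.29 and 0.73 in batch 3. In batch 2 these were 0.18, -0.02 and 0.02, and in batch 1 -0.32, -0.02 and 0.14. JUN, IER2 and FOSL2, whose windows hold no CRE, were at 0.65, 0.55 and 0.50 in batch 3. In that batch 33 of the 44 members were above the control. The grouping by CRE was chosen after the values were seen, and a link to the CRE was not tested. Across the 44 members, the differences of batches 2 and 3 correlated at r = 0.482, those of batches 1 and 2 at 0.109 and of batches 1 and 3 at 0.15. Over all 14812 genes these were 0.0397, 0.358 and 0.205. Each batch has its own control array, and genes are not independent replicates, so these are descriptions. JUN had the largest batch 2 difference of the members (1.02) and 0.65 in batch 3. It therefore weighs on r = 0.482, which was not computed without JUN.

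**Figure D4:**
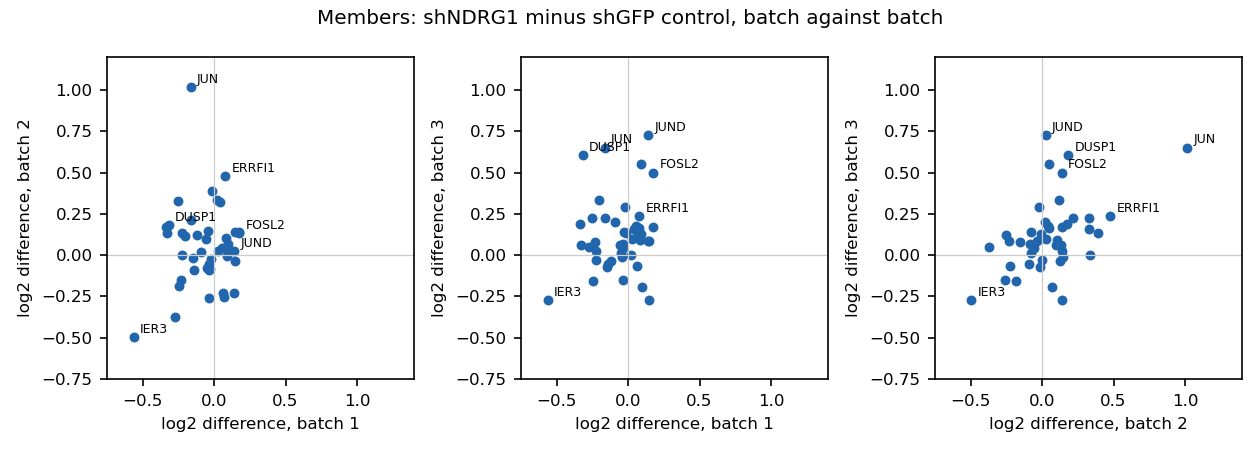
Log2 difference, shNDRG1 minus shGFP control, of the 44 members in a batch (y axis) against another batch (x axis). JUN lies at -0.16 in batch 1, 1.02 in batch 2 and 0.65 in batch 3, and IER3 is low in every panel.

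The rest of the pathway was read from lists of genes that are not members. Of the 25 measured genes of the receptor and ERK cascade, 0 passed at an adjusted p under 0.05 from limma, and at an unadjusted p under 0.05 there were 3 above the control and 2 below it, beside the 5.7% and 3.74% of all genes. The higher ones were the adaptor GRB2 (0.32, standard error 0.11), MAP2K1, which encodes the ERK kinase MEK (0.24, standard error 0.08), and SRF (0.35, standard error 0.10), whose start region is shown above. The lower ones were the docking protein GAB1 (-0.35, standard error 0.10) and the ERK-activated kinase MKNK1 (-0.21, standard error 0.06). The median of this list was -0.01, and the list was not tested as a set.

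Of 15 genes of the JNK and p38 cascades, 0 were higher and 1 lower (6.67%) at that threshold, the stress kinase MAP3K5 (-0.26, standard error 0.08). Of 14 other immediate early genes, 3 were higher (21.4%) and 0 lower, against 5.7% and 3.74% of all genes. The higher ones were MYC, TRIB1, a pseudokinase gene, and SRF, which stands in both lists and is counted in each. This list was chosen with earlier results of these data known and was not tested as a set. MYC, a transcription factor gene whose RNA rises early after growth stimulation, was above the control in batches 1, 2 and 3 by 0.28, 0.59 and 0.55, and its groups did not overlap (log2 fold change 0.47, standard error 0.08, unadjusted p = 0.00335, adjusted p = 0.318 from limma). Of 8 other genes known to follow ERK output, none reached an unadjusted p under 0.05 in either direction. The cyclin gene CCND1 among them was at -0.22 (standard error 0.09, unadjusted p = 0.0706) and below the control in all 3 batches.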

How the data were processed

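Quality of the 6 Affymetrix Gene ST arrays was checked by the authors in Expression Console, and PLIER in GeneSpring gave quantile-normalized values relative to a baseline. Both tools stand in the submitters' processing notes without a version. The deposited values, 1 per probe and array, are on a log scale read as log2, with neither the base nor a genome build stated. The baseline cancels in differences. The methods describe it as the control median, but the 3 control values do not always have a median of 0. For FOSL2, with 1 probe, they were -0.24, -0.07 and -0.43, so these arrays alone did not set the baseline. Of 44629 probes, 15835 had 1 gene symbol, 0 had several and 28794 are unnamed here. Probes were averaged for each of 14812 genes, and 7 of the 44 members had more than 1 probe. No filter on dim probes was possible. The table held 0 unused columns of sample values.

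The main comparison used limma 3.58.1 under R 4.3.3 (lmFit, eBayes), with batch as a block, Benjamini-Hochberg adjustment over all genes and a threshold of 0.05. Each batch number in the labels belongs to an array of either group, and the pairing rests on it. Within batches 1, 2 and 3 the deviations from the group means correlated at 0.785, 0.833 and 0.163. Each group was centred on its own 3 arrays, so these values are not separate checks of the pairing. The arrays of batch 2 spread most widely, and the value of batch 3 was low. The methods name no test, and describe the replicates as independent. Genes given in full had an unadjusted p under 0.05 in either fit or groups that did not overlap. The full values of JUN, JUND, JUNB and IER2, the batch patterns and the motifs were chosen after values were seen, and DUSP1, DUSP4, DUSP6, SPRY2, SPRY4 and others were named for their known roles. Members and lists were chosen with earlier results of these data known. The fit was tested on simulated arrays with known changes. Promoter windows were matched by symbol in Python 3.11.15, and figures drawn with matplotlib 3.10.9. The number of arrays limits the precision.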

Additional observations from a re-analysis of the deposited data

How the results depend on the processing

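No gene passed an adjusted p under 0.05 from limma in any alternative except 1 lower gene, ALDH2, with trended and robust variance. NDRG1 stayed below 0 and uncalled, and the 7 members given with alternatives (IER3, DUSP18, DUSP19, FOSL2, ERRFI1, ETV5 and JUN) kept their sign and stayed uncalled. The members at an unadjusted p under 0.05, 3 higher and 2 lower with the batch as a block, became 1 and 0 with no replicate block, 0 and 0 with the label day as the block, and 0 and 1 at an unadjusted p under 0.01. Trended and robust variance left 1 higher, and quantile normalization again left 1 lower. Without single batches 0 to 3 were higher and 1 to 4 lower. Leaving out 1 array of a batch gives the same fit as leaving out the batch when it is a block. IER3 had an unadjusted p under 0.05 in 8 of 10 alternatives, FOSL2 in 6, DUSP18, DUSP19 and ERRFI1 in 4 each, JUN in 1 and ETV5 in 0. The members' median was 0.0754, 0.0234 and -0.0101 without batches 1, 2 and 3, and -0.00326 with array weights. The values keep no signal over background, so probes too dim to respond could not be told from steady transcripts.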
